A study of Penaeus monodon with 38 samples.

Results

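Wild ovary at the 2 stages that carry cortical rods was compared with wild ovary at the vitellogenic stage that precedes them in the black tiger shrimp Penaeus monodon. The comparison uses 6 of the 38 single-colour arrays of the study, picked by the stage code in their titles: 2 arrays of the vitellogenic stage, 2 of the round cortical rod stage and 2 of the elongated cortical rod stage. The stage called early vitellogenic in the working description is labelled only as vitellogenic. All 6 arrays hold ovary RNA of wild-caught females that had lost 1 eyestalk by unilateral ablation, a farm practice that brings on maturation. Stages were assigned by histology. Each stage was hybridised as a pool of 4 and a pool of 5 animals, so the spread behind each p-value is that of pools, not of single females. The other wild ovary stages, used here for the estimate of spread and as a reference level, are females before ablation and at 2 h and 24 h after it, when the oocytes were previtellogenic. No genotype or strain is given.

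During vitellogenesis a shrimp oocyte fills with yolk, built from vitellogenin, a large lipid-carrying protein that in penaeid shrimps is made in the ovary as well as in the hepatopancreas. Late in this phase rod-shaped bodies form at the edge of the oocyte. They store proteins such as ovarian peritrophins and thrombospondin, which are released around the egg at spawning, and their change from round to elongated marks the approach of full maturity.

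Each array carries 2240 probes for 921 target sequences, and 244 probes have a gene name, taken from the array's design. Some of the named probes, also within the lists below, were designed to sequences of other species. Values are log2 normalised intensities, and changes are the mean of both cortical rod stages minus the vitellogenic stage. The median raw intensity of the 6 arrays ran from 183.5 to 283.1. The non-specific level of an array is the 90th percentile of its 24 vertebrate-derived probes, and 41.2% to 47.1% of probes exceeded it. Probe positions are bases of the target sequence, and no genome was used, so no genomic location is given. In bulk ovary RNA, fewer cells of a type and less RNA per cell cannot be told apart.

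No probe passed limma's test between the cortical rod stages and the vitellogenic stage: 0 of 2240 (0%) had an adjusted p under 0.05, and the smallest adjusted p was 0.837. At an unadjusted p under 0.05 there were 42 probes (1.88%), 18 higher (0.804%) and 24 lower (1.07%) in the cortical rod stages, beside the 112 that a share of 5% would give. The methods' t-test on the same values also called 0, with 47 at its unadjusted threshold. The 95% interval of a probe's change, before adjustment over all probes, reached 0.55 to either side in the median. A call after adjustment needs a change larger than this in a typical probe. The probe with the smallest p had a change of -1.22 ± 0.21 (SE) and was not called. The middle of the distribution was narrow, with 90% of the changes lying between -0.46 and 0.48. Of all 2240 probes 1056 had a change above 0 and 1184 below. Of the 244 named probes 101 were above 0 and 143 below. The sign counts of the lists below stand beside these. Of all probes 184 (8.21%) had values that did not overlap between the groups, 87 higher (3.88%) and 97 lower (4.33%) in the cortical rod stages. An exact permutation test of 4 arrays against 2 has 15 splits. Its smallest one-sided p is 0.0667, or 0.133 when doubled for 2 sides, so it cannot pass 0.05.

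The 6 arrays were not ordered by stage. The median absolute log2 difference over all probes was 0.21 to 0.31 in the 3 pairs of the same stage and 0.13 to 0.26 in the 8 pairs of a vitellogenic with a cortical rod array. The closest pair of the 6 was vitellogenic replicate 2 and elongated cortical rod replicate 1, which had a median difference of 0.130 and only 11 probes more than 1 apart. By contrast, the vitellogenic replicates had 147 such probes between them and the elongated replicates 126. Those closest arrays lie on different slides but at the same array position of the slide, position 2, by the labels' raw file names. Their titles also carry the same prawn number, which equals the position on every wild ovary array, and the labels do not say whether it stands for an animal, a field or an order. Between slides 2 and 3 the 4 pairs of wild ovary arrays at the same position differed by 0.122 to 0.194. The 12 pairs at other positions differed by 0.192 to 0.315. In each of those 4 pairs the stages differ. Over all 66 pairs of wild ovary arrays, slide 1 included, the ranges overlapped widely. The 12 pairs at the same position ran from 0.122 to 0.294 (median 0.203). The 54 pairs at other positions ran from 0.147 to 0.458 (median 0.242). The round cortical rod arrays stood at positions 1 and 3 and the vitellogenic and elongated arrays at positions 2 and 4, so position and stage cannot be told apart for the round stage. With array position as a random block limma called 0 probes (67 unadjusted, smallest adjusted p 0.405). All 5 vitellogenin probes were higher on vitellogenic replicate 2 than on elongated replicate 1, while 3 unnamed probes, among them F-E3-5-SMART (9-43) with 11.85 and 11.81, were more than 2 brighter on these arrays than on every other wild ovary array. Why the arrays are alike was not tested.

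Vitellogenin, the yolk protein precursor, had its previtellogenic mean below all 6 late arrays on each of its probes, and no difference among the late stages passed the test. On probe 7005-7039 the vitellogenic arrays read 10.50 and 12.66, the round cortical rod arrays 11.94 and 12.63, and the elongated arrays 11.97 and 11.96. The previtellogenic arrays had a mean of 8.95 ± 1.51 (SD, n = 6). The groups overlapped, because vitellogenic replicate 2 was the highest array of the 6 and replicate 1 the lowest. The change was 0.55 ± 0.98 (SE, 95% interval -1.70 to 2.79). Without vitellogenic replicate 1 it was -0.53 and without replicate 2 it was 1.62, so 1 pool sets its sign.

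The largest vitellogenin change was on probe 6949-6983, with 8.58 and 9.62 at the vitellogenic stage, 10.41 and 10.34 at the round stage, and 9.39 and 10.40 at the elongated stage. Here 3 of the 4 cortical rod arrays were above both vitellogenic arrays. The change was 1.03 ± 0.76 (SE, 95% interval -0.71 to 2.77, unadjusted p = 0.21 in limma's fit). It was 0.37 with slide as a fixed block, and 0.51 to 1.56 when 1 array was left out. Probe 7245-7279 differed by 0.03 ± 0.87 and probe 7519-7553 by 0.09 ± 0.73, and probe 7311-7345 was above the non-specific level on 3 of the 6 arrays only, with 0.22 ± 0.39. All 5 probes had a change above 0, though with slide as a fixed block probes 7245-7279 and 7519-7553 were below it, at -0.45 and -0.52, and probe 7005-7039 was at 0.02. All 5 read lower on vitellogenic replicate 1 than on replicate 2. Averaged over the 5 probes the vitellogenic arrays stood at 9.73 and 10.82, the round arrays at 10.69 and 11.08, and the elongated arrays at 10.33 and 10.54.

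**Figure D1:**
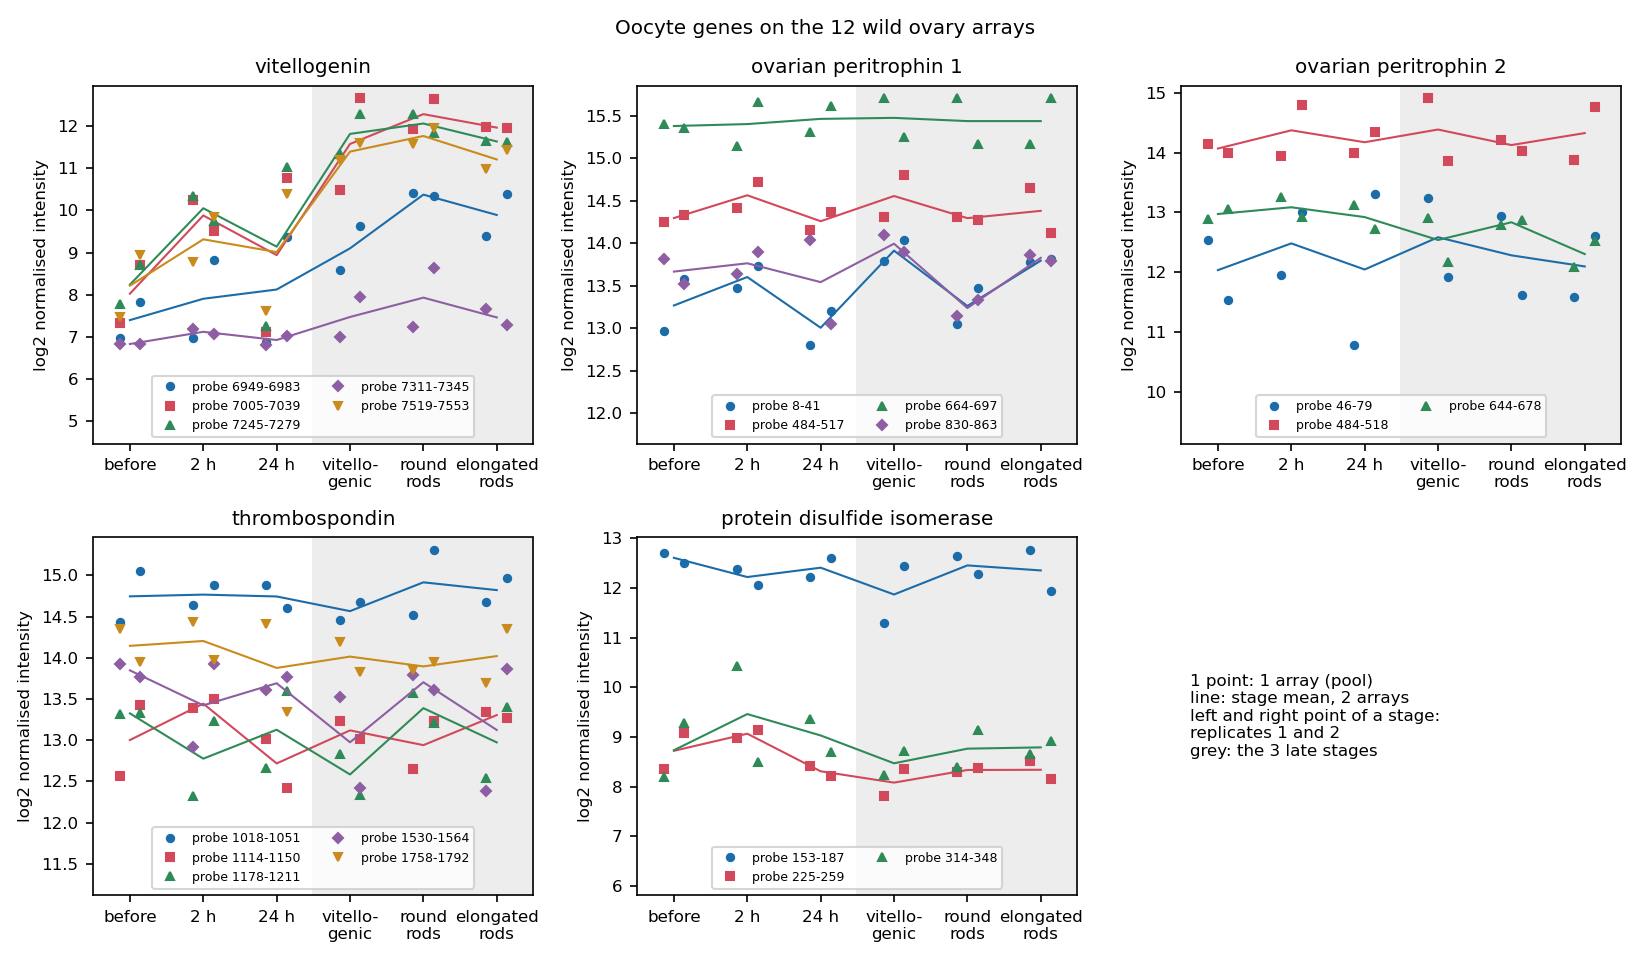
Log2 normalised intensity (vertical axes) of each probe of 5 oocyte genes on the 12 wild ovary arrays by stage (horizontal axes). Points are arrays, lines join the means of 2 arrays, and grey marks the 3 late stages. Vitellogenin stands above its early mean on the late arrays (8.95 before against 10.50 to 12.66 on probe 7005-7039), and the cortical rod genes show no common step.

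The other genes of the yolk and lipid list added no call. The list held 11 probes of 3 targets, of which 9 had a change above 0 and 2 below, with a median of 0.04 beside -0.01 over all 2240 probes. None passed the test and none had groups that did not overlap. Its member phospholipase C, which cleaves membrane phospholipids in signalling, read 7.04 and 7.20 on the vitellogenic arrays and 6.68, 7.06, 6.93 and 7.26 on the cortical rod arrays with probe 289-323, and none of the 6 exceeded the non-specific level.

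The peritrophin and thrombospondin probes were bright on every array, and the cortical rod and egg envelope list showed no joint direction between the stages that form rods and the stage before. The list held 15 probes, 6 with a change above 0 and 9 below, and a median of -0.04. Its 3 zona pellucida protein probes, for a vertebrate egg coat protein, were near the non-specific level, with 1 of them never above it on the 6 arrays. None of the 15 passed the test, and 1 had groups that did not overlap (6.67%, beside 8.21% of all probes). That probe belonged to ovarian peritrophin 1, a chitin-binding type protein of the rods and the egg's jelly layer. On its bases 830-863 the vitellogenic arrays read 14.10 and 13.89, the round arrays 13.14 and 13.34, and the elongated arrays 13.86 and 13.79. The round arrays were the lowest, and the elongated arrays lay just under the vitellogenic ones. The change was -0.46 ± 0.26 (SE, 95% interval -1.05 to 0.13), or -0.76 for the round stage alone (unadjusted p = 0.0337, not called by limma after adjustment).

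Probe 8-41 of the same gene gave 13.79 and 14.03 at the vitellogenic stage, 13.05 and 13.47 at the round stage, and 13.78 and 13.81 at the elongated stage. It repeats the order of the first probe, with the round arrays lowest, and its change was -0.39 ± 0.22. Probes 484-517 and 664-697 had changes of -0.22 ± 0.21 and -0.04 ± 0.25, so all 4 probes of peritrophin 1 were below 0, although within slide 3 probe 664-697 was above it, at 0.19. Ovarian peritrophin 2, a near relative, gave -0.39 ± 0.77, -0.16 ± 0.37 and 0.03 ± 0.25 on its 3 probes. The peritrophin probes cannot fully separate these genes, since the probe at base 484 is the same in both, as the capitals show (bases shared by both probes):
ovarian peritrophin 1, 484-517: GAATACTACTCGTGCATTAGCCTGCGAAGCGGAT
ovarian peritrophin 2, 484-518: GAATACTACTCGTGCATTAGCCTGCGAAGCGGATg

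Thrombospondin, an extracellular matrix type glycoprotein that shrimp oocytes store in their cortical rods, lay on the other side of 0 on most probes. On probe 1178-1211 the vitellogenic arrays read 12.84 and 12.33, the round arrays 13.57 and 13.20, and the elongated arrays 12.54 and 13.41. Elongated replicate 1 lay between the vitellogenic arrays, and the other 3 cortical rod arrays were above both. The change was 0.60 ± 0.38 (SE, 95% interval -0.26 to 1.46, unadjusted p = 0.149 in limma's fit). The other probes gave 0.44 ± 0.46, 0.30 ± 0.27, 0.00 ± 0.28 and -0.06 ± 0.33, the last of which was 0.03 with median scaling. Probe 1530-1564 shows how far 1 pool can move a value, with 13.52 and 12.43 at the vitellogenic stage and 12.39 on elongated replicate 1, against 13.61 to 13.86 on the other cortical rod arrays. Its change was 1.00 without vitellogenic replicate 1 and -0.12 without replicate 2.

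Some unnamed probes share bases with these named ones, which does not show that they read the same transcript. A stretch of 20 or more identical bases tied 10 probes of 8 unnamed targets to thrombospondin. Of those, 9 had a change above 0 and 1 below, from -0.13 to 0.48, with a median of 0.23. Likewise 3 probes of 3 unnamed targets were tied to peritrophin 1, and 4 probes of 3 targets to peritrophin 2, with changes of -0.52 to -0.27 and of -0.45 to -0.27. None of these tied probes had an unadjusted p under 0.05. Because of the shared bases they are not independent of the named probes, and whether they belong to the same genes was not tested. Over all 139 probe pairs of different targets with such an overlap, 110 had changes of the same sign, and the median distance between the 2 changes of a pair was 0.14.

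Protein disulfide isomerase, a chaperone of the secretory pathway that joins cysteines in newly made proteins, had 3 probes, all with a change above 0. Probe 153-187 read 11.30 and 12.43 at the vitellogenic stage, 12.63 and 12.27 at the round stage, and 12.77 and 11.94 at the elongated stage. Vitellogenic replicate 1 was the lowest array, and replicate 2 lay among the cortical rod arrays. The change was 0.53 ± 0.35 (SE, 95% interval -0.26 to 1.33), and without vitellogenic replicate 1 it was -0.02. The other probes gave 0.31 ± 0.54 and 0.26 ± 0.24.

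In the list of ribosome, ubiquitin and chromatin genes 8 of 10 probes had a change below 0, with a median of -0.16, and none passed the test. A ribosomal small subunit protein (probe 297-331) read 11.28 and 11.24 at the vitellogenic stage and 10.26, 10.99, 10.96 and 10.99 at the cortical rod stages. Both vitellogenic arrays were above all 4 others, and the change was -0.46 ± 0.26 (SE, unadjusted p = 0.111 in limma's fit). The other probes of this gene gave -0.62 and -0.09. Probe 211-245 of ribosomal protein L18 overlapped between the groups, with 10.48 and 11.34 against 9.39, 10.23, 11.09 and 9.99. Its change was -0.73 ± 0.47. The other L18 probes gave -0.17 and -0.12. Of the 9 probes for energy metabolism 6 were above 0 and 3 below, with a median of 0.13.

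Hormone receptors and enzymes of steroid, retinoid and methyl farnesoate signalling, which carry the endocrine signals of maturation and moulting, had 14 of 18 probes below 0, a median of -0.07 and no call. Of the 18, 8 exceeded the non-specific level on at least 1 of the 6 arrays. The nuclear receptor E75, an ecdysone-induced transcription factor, had 5 probes, and the one with the smallest p (3261-3295) never exceeded it, with 6.90 and 7.05 against 6.62, 6.77, 6.78 and 6.95. Retinoid X receptor, the partner of the ecdysone receptor, read 7.80 and 7.06 against 7.00, 7.17, 6.94 and 7.47, with a change of -0.29 ± 0.24. That probe was above the non-specific level on 1 of the 6 arrays. The E75 probe was designed to a sequence of Metapenaeus ensis and the retinoid X receptor probe to one of Carcinus maenas. Proteases, 35 probes in all, had 13 above and 22 below 0. The ovarian serine protease, with a probe designed to a sequence of Bombyx mori, read 6.78 and 7.28 against 6.45, 6.81, 6.72 and 6.90. Its change was -0.31 ± 0.20, on values not above the non-specific level.

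Markers of other tissues were checked on the same arrays, since a piece of ovary can carry other cells. Eye and neural genes had 38 of 107 probes above 0 and 69 below, and 37 of the 107 were above the non-specific level on at least 1 array. Their mean level was 7.17 and 7.10 on the vitellogenic arrays and 7.01 to 7.19 on the cortical rod arrays. Vitellogenesis inhibiting hormone, an eyestalk peptide that holds back yolk formation, had probes designed to a sequence of Homarus gammarus, not of Penaeus monodon. Its probe 339-373 read 8.14 and 7.70 on the vitellogenic arrays and 7.04, 7.59, 7.47 and 7.53 on the cortical rod arrays. This probe did not overlap between the groups, but only the 2 vitellogenic arrays were above the non-specific level. The change was -0.51 ± 0.28 (SE, unadjusted p = 0.106 in limma's fit). Its probe 587-621 overlapped between the groups, with a change of -0.21 ± 0.16. Muscle genes had 5 of 7 probes above 0, with mean levels of 7.29 and 7.35 against 7.25 to 7.42. The 3 haemocyte probes, all of transglutaminase, had mean levels of 7.09 and 6.99 against 6.71 to 7.33. None of these probes passed the test, and the lists for cell cycle and digestive gland matched no probe. The ovary's own markers, the peritrophin and thrombospondin probes and 4 of 5 vitellogenin probes, exceeded the non-specific level on each of the 6 arrays.

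Of the other named probes, clathrin heavy chain 2 (probe 113-147), a coat protein of the vesicles that take up yolk, had the smallest p among the higher ones. It read 6.59 and 6.59 at the vitellogenic stage and 6.72, 6.92, 6.95 and 7.14 at the cortical rod stages. The groups did not overlap, but no array was above the non-specific level. The change was 0.35 ± 0.15 (SE, unadjusted p = 0.0489, adjusted p = 0.999 in limma's fit). The smallest p among the lower named probes belonged to cathepsin F (probe 489-523), a probe designed to a vertebrate sequence, which read 9.35 on vitellogenic replicate 2 and 5.85 to 6.41 on the other 5 arrays.

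The smallest p-values of the whole comparison belonged to unnamed sequences that were lower in the cortical rod stages. They are shown here because the 2 leading targets share sequence, with the common 30 bases in capitals:
Contig[0272], 198-232: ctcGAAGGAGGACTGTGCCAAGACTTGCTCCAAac
EB409349, 151-185: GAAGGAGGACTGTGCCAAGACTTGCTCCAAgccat
EB409349, 7-41: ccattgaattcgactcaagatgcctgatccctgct
The first target is an assembled contig and the second an expressed sequence tag (EST, a single cDNA read) of the hepatopancreas library. Probe 198-232 of Contig[0272] read 13.35 and 13.54 at the vitellogenic stage, 11.80 and 12.08 at the round stage, and 12.72 and 12.28 at the elongated stage. Both vitellogenic arrays were above all cortical rod arrays and the round arrays were the lowest. The change was -1.22 ± 0.21 (SE, 95% interval -1.71 to -0.74), with an unadjusted p of 0.000374 and an adjusted p of 0.837 in limma's fit. Within slide 3, which holds 1 vitellogenic and 2 cortical rod arrays, the difference was -1.36.

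All 3 probes of Contig[0272] had values that did not overlap between the groups, the others with changes of -0.97 ± 0.34 and -0.78 ± 0.23. Probe 7-41 of EB409349 read 12.61 and 12.68 at the vitellogenic stage, 11.17 and 10.67 at the round stage, and 11.63 and 11.85 at the elongated stage. It shows the same order of stages, and its change was -1.31 ± 0.26 (unadjusted p = 0.00085, adjusted p = 0.952 in limma's fit). The EB409349 probe that shares bases with the contig (151-185) was lower by less, at -0.76 ± 0.34. The last EB409349 probe (272-305) gave -0.82 ± 0.64, and on both of these probes the groups overlapped. On probe 198-232 of the contig the previtellogenic arrays ran from 12.41 to 13.24, with a mean of 12.80 ± 0.31 (SD, n = 6), below both vitellogenic arrays and overlapping the elongated ones. Since the targets share bases, their 6 probes are not 6 separate observations.

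A second hepatopancreas EST, EB409343, also had all 3 probes lower without overlap. Its probe 314-348 read 9.91 and 9.78 against 8.93, 9.02, 9.46 and 8.76, a change of -0.80 ± 0.22 (unadjusted p = 0.00645). Contig[0237] had both probes lower without overlap, but was near the non-specific level: probe 607-641 read 7.55 and 8.28 against 6.87, 6.85, 7.28 and 6.96, and only 1 array was above the level. The clones D-H1-5-SMART (34-68) and plateC-A1-5SMART-primer (177-211) gave changes of -0.53 ± 0.16 and -0.47 ± 0.16. The other D-H1-5-SMART probe (118-155) gave -0.18 ± 0.29. The other plateC-A1-5SMART-primer probes gave -0.45 ± 0.18 (45-79) and -0.21 ± 0.54 (138-171). D-H1-5-SMART (34-68) shares 34 bases with the ovary EST EB390384 (440-473), whose change was -0.24 ± 0.18. Of the 850 targets with 2 or more probes, 8 had every probe without overlap between the groups, 4 higher and 4 lower.

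**Figure D2:**
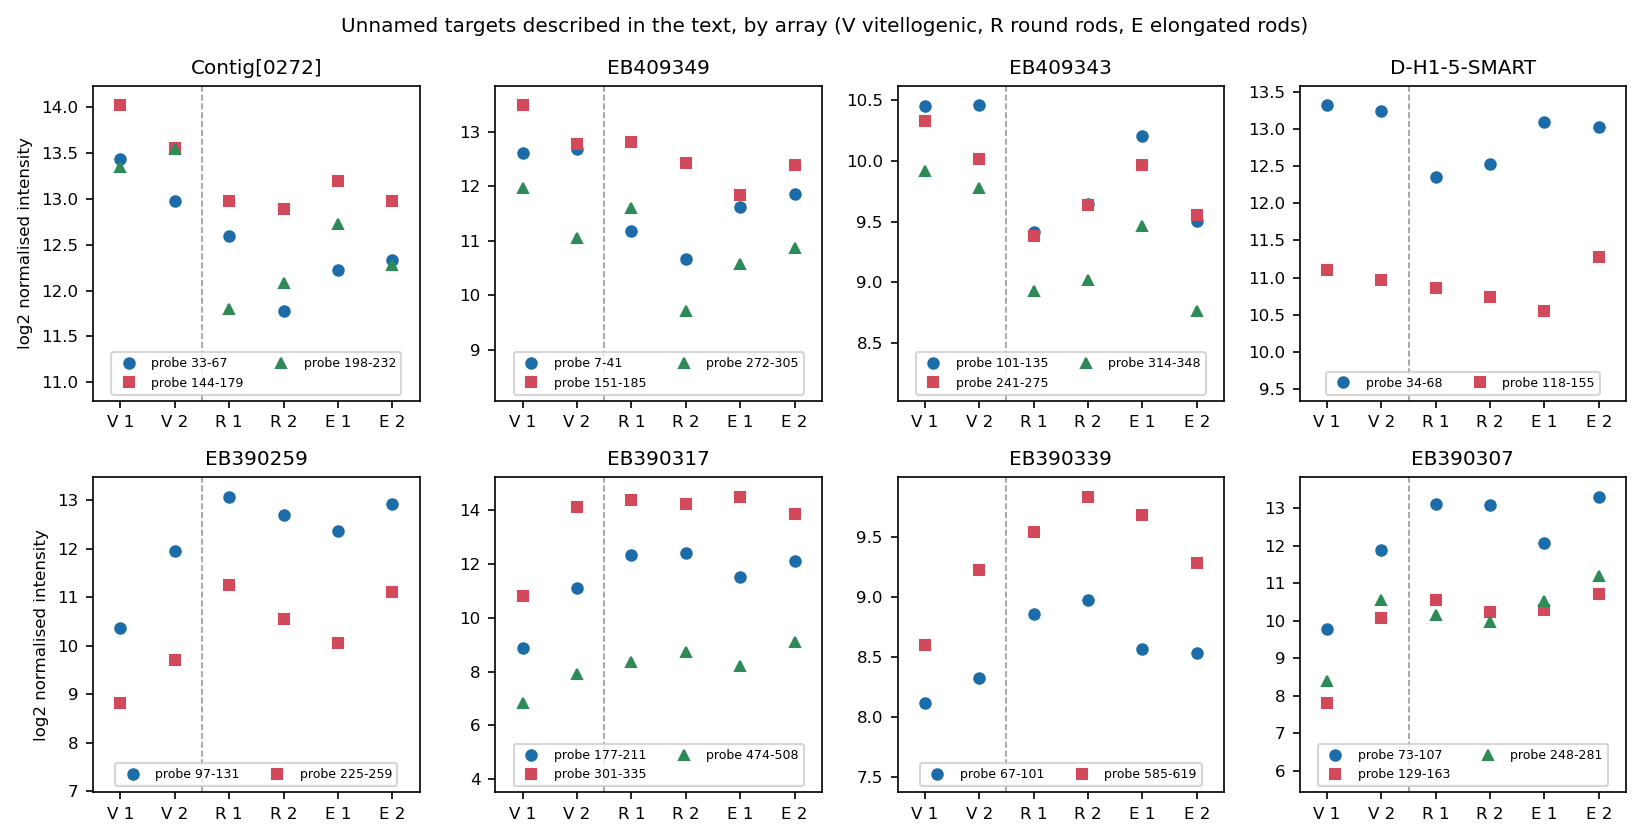
Log2 normalised intensity (vertical axes) of every probe of 8 unnamed targets on the 6 late wild ovary arrays (horizontal axes), with the vitellogenic arrays left of the dashed line. In the upper row, targets led by a lower probe, probe 198-232 of Contig[0272] stands 1.22 lower in the cortical rod stages; in the lower row, ovary library targets, every probe is lowest on vitellogenic replicate 1.

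The largest differences in the other direction belonged to unnamed ESTs of the ovary library. Of the 37 probes with a change over 1, 33 came from that library, which has 345 of the 2240 probes, and they cover 17 targets, several of which share probe sequence (EB390272 with EB390380 and EB390332, for example) and so are not separate sequences. The leading probes were these:
EB390317, 177-211: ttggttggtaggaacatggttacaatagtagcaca
EB390307, 73-107: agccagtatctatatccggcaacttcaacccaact
EB390259, 97-131: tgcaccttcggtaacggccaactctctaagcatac
EB390317 read 8.89 and 11.12 at the vitellogenic stage, 12.33 and 12.41 at the round stage, and 11.53 and 12.13 at the elongated stage. Both vitellogenic arrays were below the others, replicate 1 by far the more. The change was 2.10 ± 0.72 (SE, unadjusted p = 0.019, adjusted p = 0.999 in limma's fit). EB390307 read 9.79 and 11.88 against 13.12, 13.08, 12.07 and 13.30, with the same order and a change of 2.06 ± 0.74. EB390259 read 10.36 and 11.95 against 13.08, 12.70, 12.38 and 12.92, a change of 1.61 ± 0.44 (unadjusted p = 0.00593). The probes EB390272 (88-121), EB390300 (32-66) and EB390339 (67-101) had changes of 1.15, 0.85 and 0.51. The other probe of EB390300 (192-226) showed no such rise, at 0.01 ± 0.23. The other probes of EB390272 gave 1.28 and 1.37, and that of EB390339 gave 0.67. Those of EB390317 gave 1.76 (301-335) and 1.22 (474-508), but -0.10 and 1.01 within slide 3.

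These differences rested mostly on vitellogenic replicate 1. All 33 ovary EST probes with a change over 1 had their lowest value on that array, and the mean of the cortical rod arrays exceeded it by a median of 2.36, against 0.57 for vitellogenic replicate 2. Vitellogenic replicate 1 is also the only one of the 6 arrays on slide 1. The other arrays of that slide, 3 previtellogenic pools that had no part in choosing these probes, were low as well. The median level of the 33 probes was 10.41 to 11.02 on these pools and 11.49 to 12.39 on the previtellogenic arrays of slides 2 and 3. On vitellogenic replicate 1, which did enter the choice, it was 9.89. Among previtellogenic arrays alone, 32 of the 33 probes were lower on slide 1, by a median of 1.07, while the other 312 ovary EST probes differed by a median of 0.20 and all 2240 probes by 0.06 in the opposite direction. With slide as a fixed block all 33 changes stayed above 0 with a median of 0.93, down from 1.43, and 12 of them exceeded 1. Within slide 3 the median was 0.86, and 29 of the 33 were above 0. The 33 probes were chosen for a change over 1 on these same late arrays. The choice itself therefore favours values above 0 in both settings, and neither is a separate check. What part of the pooled difference goes with the slide or the replicate number was not tested.

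**Figure D3:**
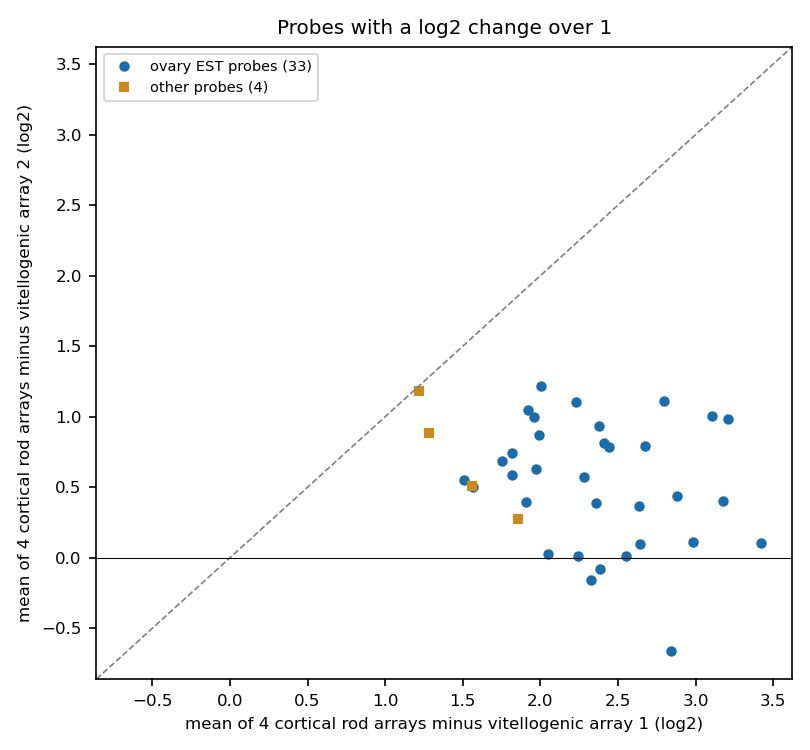
For the 37 probes with a log2 change over 1, the mean of the 4 cortical rod arrays minus vitellogenic replicate 1 (horizontal axis) against the same mean minus vitellogenic replicate 2 (vertical axis), in log2. The dashed line marks equal differences, and all points lie below it, farther from replicate 1 than from replicate 2.

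Over the ovary library as a whole, 208 of the 345 probes had a change above 0 and 137 below, with a median of 0.09. Groups did not overlap for 58 of them, 43 higher and 15 lower, which is 16.8% beside 8.21% of all probes and 12.9% of the 783 probes above the non-specific level on all 6 arrays. The mean level of the library was 10.46 on vitellogenic replicate 1 and 10.71 to 10.82 on the other 5 arrays. None of these probes passed limma's test.

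**Figure D4:**
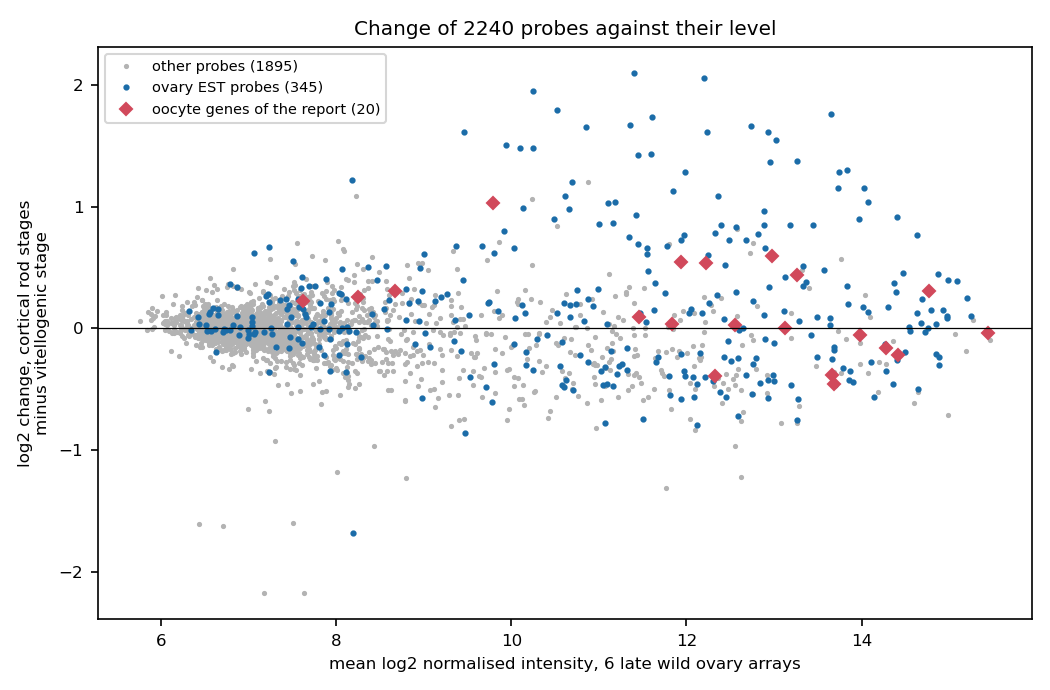
Log2 change between the cortical rod stages and the vitellogenic stage (vertical axis) against the mean log2 intensity over the 6 arrays (horizontal axis) for all 2240 probes. The points above 1 are mostly ovary EST probes, and the oocyte genes lie among the other bright probes.

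Most of the largest differences toward lower values came from single arrays. Of the 10 probes with a change under -1, 6 had 1 vitellogenic array more than 2 above every other array. Contig[0306] (297-331) read 10.84 on vitellogenic replicate 1 and 6.34 to 6.53 on the other 5, and B-G8-5-SMART (157-191) read 11.23 there and 6.64 to 7.12 elsewhere. C-F11-5-SMART (151-185) read 8.83 on that array and 5.72 to 6.18 on the rest. Limma called these 3 probes when vitellogenic replicate 2 was left out (changes -4.38, -4.32 and -2.96), and 1 probe, cathepsin F (489-523), when replicate 1 was left out (change -3.18). In both cases the vitellogenic stage is 1 array, assumed to vary like the other stages. With vitellogenic replicate 2 and elongated replicate 1 both left out, a choice made after seeing how alike they were, limma called the same 3 probes. These 4 probes were selected after their values were seen, and each is high on a single pool.

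Taken one at a time, the cortical rod stages did not differ from the vitellogenic stage or from each other in any probe that passed the test. Between the round and the vitellogenic stage limma called 0 of 2240 (0%), with 56 at an unadjusted p under 0.05 (2.5%), 28 higher (1.25%) and 28 lower (1.25%), and a smallest adjusted p of 0.406. Between the elongated and the vitellogenic stage it called 0 (0%), with 14 unadjusted (0.625%), 5 higher (0.223%) and 9 lower (0.402%). Between the elongated and the round stage it called 0 (0%), with 15 unadjusted (0.67%), 6 higher (0.268%) and 9 lower (0.402%). Without vitellogenic replicate 1 the first 2 of these gave 1 call each, and without replicate 2 they gave 3 each. The 2 leading lower probes had a larger change at the round stage, -1.50 for Contig[0272] (198-232) and -1.72 for EB409349 (7-41), than at the elongated stage, -0.94 and -0.90. Whether those changes differ between the stages was part of the comparison of elongated with round arrays, which called no probe. For the ovary ESTs the values were 2.37 and 1.83 for EB390317 (177-211) and 2.26 and 1.85 for EB390307 (73-107).

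The same stages were set side by side in eyestalk, the other wild tissue with 2 arrays a stage, in a fit of 24 arrays. No probe's change differed between ovary and eyestalk by limma's test of the difference: 0 of 2240 (0%) were called, 50 had an unadjusted p under 0.05 (2.23%), and the smallest adjusted p was 0.642. In that fit ovary alone had 0 calls (0%) and 51 unadjusted (2.28%), and eyestalk alone 1 call (0.0446%) and 69 unadjusted (3.08%). Contig[0237] (607-641) had a change of -0.97 in ovary and 1.95 in eyestalk, a difference of -2.92 ± 0.66 (SE, unadjusted p = 0.000573 in limma's fit). Its eyestalk vitellogenic arrays read 12.53 and 10.15, replicate 2 the lower one, against 12.83 to 13.78 at the cortical rod stages. Its other probe (327-361) had an eyestalk change of 0.89, with 11.02 and 11.07 on the vitellogenic arrays. Contig[0272] (144-179) had -0.77 and 1.06, but its other probes had eyestalk changes of -0.11 (198-232) and -0.58 (33-67). EB409343 (314-348) had -0.60 and 1.54, and its other probes 0.33 and 0.41 in eyestalk. The larger eyestalk values of Contig[0272] and EB409343 also go with a low eyestalk vitellogenic replicate 2. It read 9.91 beside 11.51 on replicate 1 for Contig[0272] (144-179) and 7.62 beside 10.20 for EB409343 (314-348). The leading probes of 3 ovary ESTs never exceeded the non-specific level in eyestalk at these stages. Their eyestalk changes were -0.18 for EB390259 (97-131), 0.04 for EB390317 (177-211) and 0.04 for EB390307 (73-107). Another probe of EB390307 (248-281) had an eyestalk change of 1.18 (unadjusted p = 0.301 in limma's fit). The count of 0 depended on single pools: it was 1 without ovary vitellogenic replicate 1, 6 without ovary vitellogenic replicate 2 and 12 without eyestalk vitellogenic replicate 1.

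Captive-reared females gave 1 ovary array each for the vitellogenic and the elongated stage, from pools of 3, so their differences have no replicate check and no test. On these arrays 4 of 5 vitellogenin probes were lower at the elongated stage, by -0.93 for probe 7005-7039 (9.24 to 8.31) and -1.20 for probe 7519-7553 (9.91 to 8.71), and the fifth was not above the non-specific level on either array. In wild ovary the elongated minus vitellogenic difference of those probes on the same normalisation was 0.37 and -0.19. The leading ovary ESTs, above 0 in wild ovary, differed by -0.44 for EB390259 (97-131), -0.27 for EB390317 (177-211) and -1.07 for EB390307 (73-107). Contig[0272] (198-232) differed by 0.19 and EB409349 (7-41) by -0.15, against -0.97 and -0.93 in wild ovary. Over all 2240 probes the captive difference exceeded 1 in 36 and was under -1 in 42.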

How the data were processed

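Per the labels' protocols, ovary RNA was amplified, labelled with a single dye (Cy5) and hybridised to an oligonucleotide array. Per the file headers, the deposited scanner files list a mean and a median foreground intensity for every spot, unlogged, without a background column. The authors' value table held the same mean intensity (all 85082 values equal within 0.01), so it is unlogged and uncentred, with column medians of 72.3 to 384. The sources used here do not name the scanner software.

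From the deposited mean intensity, log2 values were computed after normexp correction (offset 50), and the 12 wild ovary arrays were then quantile-normalised (limma 3.58.1, R 4.3.3, statmod 1.5.0). Each probe was fitted with 6 stage means (lmFit, eBayes), with 6 residual degrees of freedom before moderation, and a call needed an adjusted p under 0.05 (Benjamini-Hochberg, 2240 probes). Wild ovary and eyestalk were fitted together over 24 arrays. The fit was also run on simulated data. Their noise was independent between arrays, so that run cannot check effects of slide, position or single pools. Slide and array position were read from raw file names in the labels.

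Named probes were the 12 with the smallest p in each direction among named genes, all probes of the 5 oocyte genes, examples of smallest p for each list, and the 6 unnamed probes with the smallest p in each direction above the non-specific level on at least 2 arrays. Others were picked after their values were seen. Positions of different probes of 1 gene are given one by one. The comparison, the lists and the non-specific level were chosen with earlier results of these data known. Replicate numbers were not taken as pairs: their deviations correlated at 0.27, -0.32 and 0.10 over the 3 late stage pairs and at -0.32 to 0.64 over all 15 stage pairs, and the labels do not say what a number shares.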

Additional observations from a re-analysis of the deposited data

Results flagged for a closer look

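Among the 56 named probes, 5 had 1 of the 4 cortical rod arrays standing away from the other 3, with a gap, as a share of the group's range, above Dixon's 95% critical value. Chance flags about 1 in 20 groups, and these arrays come from 2 stages. Vitellogenin 7005-7039 was higher on round replicate 2 (12.63, against 11.94 to 11.97, a gap of 0.953), and vitellogenin 6949-6983 was lower on elongated replicate 1 (9.39, against 10.34 to 10.41, a gap of 0.929). Thrombospondin 1114-1150 was lower on round replicate 1 (12.65, against 13.23 to 13.35, a gap of 0.834), and thrombospondin 1530-1564 was lower on elongated replicate 1 (12.39, against 13.61 to 13.86, a gap of 0.83). The ribosomal small subunit protein 297-331 was lower on round replicate 1 (10.26, against 10.96 to 10.99, a gap of 0.957).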

How the results depend on the processing

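The count of 0 calls between the cortical rod and the vitellogenic stages was the same under the planned settings (foreground median, no background correction, median scaling, filters on dim or saturated probes, the 6 arrays alone, slide as a block, the methods' t-test), while leaving out 1 array in turn gave 0 to 3 calls for the pooled, the round and the elongated comparison alike, 0 for elongated against round, and 0 to 12 for the ovary and eyestalk difference, where the arrays of both tissues were left out in turn and the 12 came without eyestalk vitellogenic replicate 1. With both alike arrays left out, added after seeing the data, the first 3 comparisons gave 3 calls each. Replicate numbers as a replicate block gave 0 calls and 89 at an unadjusted p under 0.05, against 42; the numbers were not taken as pairs. Of 1382 values of the 56 named probes, 1312 kept their direction and side of the threshold and 56, on 20 probes, changed sign; cathepsin F was called without vitellogenic replicate 1. The sign turned with the setting within slide 3 for ovarian peritrophin 2 484-518 (0.54), vitellogenin 7005-7039 (-0.36), protein disulfide isomerase 225-259 (-0.087), ovarian peritrophin 2 46-79 (0.18), thrombospondin 1758-1792 (0.31), vitellogenin 7245-7279 (-0.56), ovarian peritrophin 1 664-697 (0.19), protein disulfide isomerase 153-187 (-0.33), retinoid X receptor 101-135 (0.26), NADH:ubiquinone oxidoreductase flavoprotein 1 17-51 (-0.18) and muscle LIM protein 84B 73-106 (-0.19). The sign turned with the setting both alike arrays left out for ovarian peritrophin 2 644-678 (-0.24), thrombospondin 1114-1150 (-0.13), cathepsin F 489-523 (0.016), phospholipase C 289-323 (0.020) and hemocyte transglutaminase 145-179 (0.17). The sign turned with the setting slide as a fixed block for thrombospondin 1114-1150 (-0.050), thrombospondin 1758-1792 (0.27), vitellogenin 7245-7279 (-0.45), vitellogenin 7519-7553 (-0.52) and NADH:ubiquinone oxidoreductase flavoprotein 1 17-51 (-0.027). The sign turned with the setting slide as a random block for thrombospondin 1114-1150 (-0.0075), thrombospondin 1758-1792 (0.0088), vitellogenin 7245-7279 (-0.064) and vitellogenin 7519-7553 (-0.029). The sign turned with the setting each array scaled to one median for thrombospondin 1758-1792 (0.030). Over the left-out arrays the change ran from -0.65 to 0.36 for ovarian peritrophin 2 484-518, -0.35 to 0.40 for ovarian peritrophin 2 644-678, -0.53 to 1.62 for vitellogenin 7005-7039, -0.013 to 0.52 for protein disulfide isomerase 225-259, -0.14 to 0.14 for thrombospondin 1114-1150, -1.06 to 0.25 for ovarian peritrophin 2 46-79, -0.24 to 0.13 for thrombospondin 1758-1792, -0.43 to 0.50 for vitellogenin 7245-7279, -0.27 to 0.20 for ovarian peritrophin 1 664-697, -0.46 to 0.020 for ovarian peritrophin 1 484-517, -0.12 to 1.00 for thrombospondin 1530-1564, -0.024 to 1.10 for protein disulfide isomerase 153-187, -0.24 to 0.69 for vitellogenin 7311-7345, -0.10 to 0.29 for vitellogenin 7519-7553, -3.18 to -0.057 for cathepsin F 489-523, -0.23 to -0.047 for phospholipase C 289-323, -0.66 to 0.081 for retinoid X receptor 101-135, -0.20 to 0.53 for NADH:ubiquinone oxidoreductase flavoprotein 1 17-51, -0.031 to 0.29 for muscle LIM protein 84B 73-106 and -0.31 to 0.010 for hemocyte transglutaminase 145-179. Causes were not tested. With 2 pools a stage, the number of arrays limits the precision, and dim probes carry little information.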

Other observations

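A few unnamed probes were bright on vitellogenic replicate 2 and elongated replicate 1 and on no other wild ovary array; the 3 that exceeded every other array by more than 2 were picked after their values were seen. F-E3-5-SMART (9-43) read 11.85 and 11.81 on those arrays and 7.16 to 7.99 on the other 10, F-D8-5-SMART (27-60) read 11.08 and 11.20 against 6.93 to 7.49, and EB409285 (305-339) read 11.06 and 11.04 against 6.28 to 6.81. These are the arrays that differed least among the 6, on different slides at the same position.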
